A study of Mus musculus with 16 samples.

Results

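The hypoxia-inducible factor (HIF) system was described through 7 genes in sorted mouse astrocytes: the HIF alpha subunits Hif1a, Epas1 and Hif3a, the prolyl hydroxylases Egln1, Egln2 and Egln3, and Vegfa, a target that encodes vascular endothelial growth factor A. They were taken by gene symbol and are 7 of the 39171 features in the deposited table of FPKM, in which fragments are scaled by transcript length and library size. The set was proposed because Hif3a and Vegfa were higher in reporter-positive libraries. The values of these 7 genes in positive against negative libraries are therefore a description with no test, and the tests below compare the spinal cord with the thalamus.

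Each of 4 C57BL/6 mice at postnatal day 15 gave 4 libraries: astrocytes positive or negative for an IL-33 reporter, sorted by flow cytometry from the thalamus and from the spinal cord. All 4 groups, of 4 libraries each, carried both transgenes, with the genotype written as IL-33-mCherry (het)/Aldh1l1-GFP+, so no group lacked the reporters. The mCherry reporter is meant to mark cells that express Il33, an alarmin cytokine gene, and the gate followed mCherry, not the Il33 transcript. Aldh1l1 is a folate enzyme gene widely used to mark astrocytes, and the role of its GFP in the sort was not stated by the labels.

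The 12 astrocyte markers were present in every group, with none at 0 in all libraries of a group, and summed to 6457 to 8604 FPKM in thalamus negative, 6627 to 8084 in thalamus positive, 9404 to 11264 in spinal cord negative and 14154 to 15733 in spinal cord positive libraries. Negative libraries also held markers of other cells: 12 oligodendrocyte markers summed to 428 to 963 FPKM for thalamus and 3259 to 3483 for spinal cord, against 94.1 to 136 and 196 to 228 in positive libraries. The 8 ependymal markers summed to 240.2 to 448 FPKM and 73.7 to 95.6 in negative libraries of the thalamus and the spinal cord, and to at most 5.87 in positive ones. The 14 endothelial markers summed to 14.3 to 87.0 FPKM in thalamus negative and 57.4 to 96.1 in spinal cord negative libraries, against 12.9 to 17.9 and 9.95 to 14.7 in positive ones. The negative libraries of mouse 1 stood apart, with a summed FPKM of at least 2233820 against at most 1635367 in any other library. Mouse 1 was also the only one with the X-inactivation transcript Xist at 175 FPKM or more, against at most 1.46 FPKM in the other mice. Leaving out mouse 1 therefore also leaves out the only mouse with high Xist. In these bulk samples, fewer cells that express a gene and less RNA per cell cannot be told apart.

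HIF alpha subunits are made continuously and, with oxygen present, are hydroxylated by the Egln enzymes, bound by the von Hippel-Lindau protein Vhl and degraded. In low oxygen they persist, pair with Arnt and bind a short element in genes for glycolysis, red cell production and vessel growth. Because much of this control acts on the protein, the transcript levels reported here do not give HIF activity. In the developing brain and spinal cord, astrocytes are a known source of Vegfa, which acts on the receptors Flt1 and Kdr of endothelial cells.

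The core of the HIF element reads ACGTG or GCGTG, and the 250 bases before the start of the transcript were searched for both on either strand in RefSeq windows (GRCm38.p6), which were present for 6 of the 7 genes (none for Epas1). The 3 windows shown are those of Hif3a and Vegfa, the genes with the highest positive to negative ratios, and of Hif1a, the gene with a tested regional difference. They are written 5′ to 3′ on the strand of the gene, with motif matches in capitals: Hif3a at chr7:17062428-17062677 (minus strand), Vegfa at chr17:46032378-46032627 (minus strand) and Hif1a at chr12:73907617-73907866 (plus strand).
Hif3a: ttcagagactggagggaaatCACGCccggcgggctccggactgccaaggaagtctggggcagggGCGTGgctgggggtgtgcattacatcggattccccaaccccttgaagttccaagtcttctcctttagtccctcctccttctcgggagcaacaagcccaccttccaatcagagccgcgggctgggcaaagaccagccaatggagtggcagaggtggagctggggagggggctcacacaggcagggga
Vegfa: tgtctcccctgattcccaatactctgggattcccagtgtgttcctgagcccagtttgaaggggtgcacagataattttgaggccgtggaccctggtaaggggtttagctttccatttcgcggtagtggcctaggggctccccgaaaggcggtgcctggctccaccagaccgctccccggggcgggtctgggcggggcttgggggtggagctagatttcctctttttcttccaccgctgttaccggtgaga
Hif1a: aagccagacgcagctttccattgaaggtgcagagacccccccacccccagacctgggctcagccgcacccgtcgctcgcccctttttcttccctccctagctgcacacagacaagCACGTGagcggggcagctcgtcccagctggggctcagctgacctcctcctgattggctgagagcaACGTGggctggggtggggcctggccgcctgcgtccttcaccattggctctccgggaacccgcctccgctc
The Hif3a window held 2 GCGTG matches, 1 on the gene's strand at 186 to 182 bases before the start and 1 on the opposite strand at 230 to 226 bases. The Vegfa window before this start held 0 matches, and a second annotated start, whose window overlaps an exon, held 1 of each motif. Bases farther than 250 from a start were not searched, so 0 matches covers this window only. Hif1a had 3 ACGTG matches, of which a pair shares the palindrome at 135 to 130 bases. Its RefSeq start, at 73907867, lies inside the GENCODE span of the gene, which begins at 73901375, so this window is also inside that span. Of 32851 windows of the same length, 16.6% held ACGTG, 28.2% held GCGTG and 38.6% held either, so such matches are common. A match is a description of the letters and not a measured site.

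Hif3a, whose product has forms that compete with the other HIF alpha subunits, lies on chromosome 7 from 17031507 to 17062427 (GRCm38, minus strand). In the thalamus it was at 14.95, 19.2, 25.2 and 14.6 FPKM in the negative libraries of mice 1 to 4. In the positive libraries it was at 58.5, 80.5, 97.0 and 55.6 FPKM. All 4 positive libraries lay above all 4 negative ones, and the ratio within a mouse ran only from 3.8 to 4.19. In the spinal cord the negative libraries were at 10.6, 42.7, 19.2 and 16.7 FPKM. The positive ones were at 63.3, 98.9, 87.5 and 66.1 FPKM. The groups again did not overlap, but the ratio within a mouse was wider, from 2.32 in mouse 2 to 5.99 in mouse 1. Group means were 18.5 ± 4.92 and 72.9 ± 19.6 FPKM in negative and positive thalamus libraries, and 22.3 ± 14.1 and 78.9 ± 17.2 FPKM in spinal cord libraries (SD, n = 4).

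Vegfa, on chromosome 17 from 46016993 to 46032369 (minus strand), had the highest mean of the 7 genes over the 16 libraries, 220.4 FPKM. Thalamus negative libraries of mice 1 to 4 were at 133, 138, 145 and 109.5 FPKM. Thalamus positive libraries were at 303, 281, 318 and 326 FPKM. In the spinal cord the negative libraries were at 123, 133, 142 and 129 FPKM. Their positive partners were at 314, 330, 293 and 310.0 FPKM. Every positive library was above every negative one in both regions, with ratios of means of 2.34 and 2.37 and ratios within a mouse of 2.04 to 2.98. The 4 group means formed 2 levels, 131 ± 15.3 and 132 ± 8.09 FPKM in negative and 307 ± 19.9 and 312 ± 15.1 FPKM in positive libraries (SD, n = 4), and within each level the ranges of the regions overlapped. The plot of the 7 genes by library shows these levels beside the wider scatter of the other members.

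**Figure D1:**
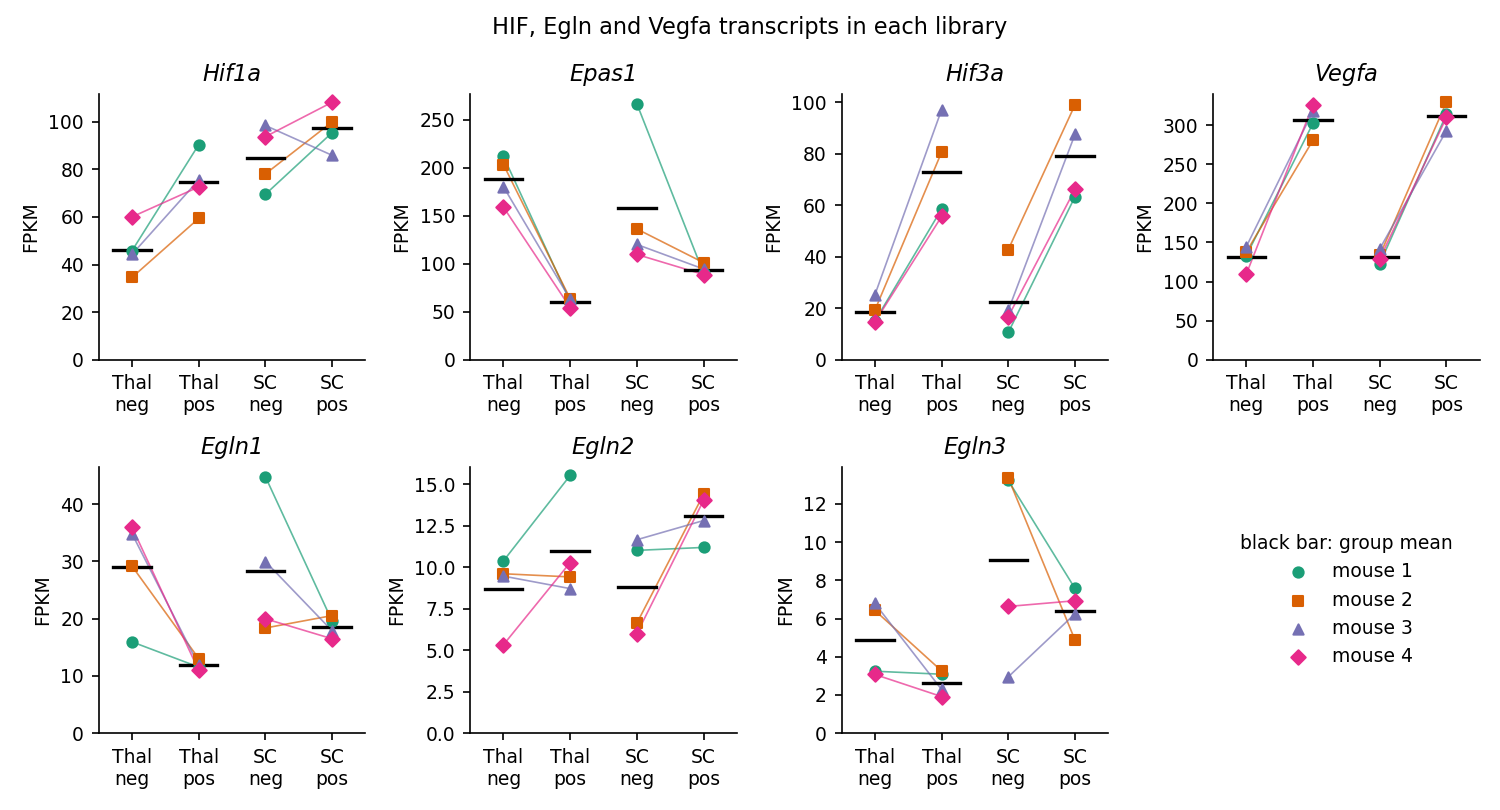
FPKM of the 7 genes in each of the 16 libraries, by group (thalamus or spinal cord, reporter-negative or reporter-positive); symbols mark the mouse, lines join the 2 libraries of a mouse and region, and black bars are group means. Hif3a and Vegfa are higher in every positive library than in any negative one of the region, Epas1 is lower, and 1 spinal cord negative library, from mouse 1, stands at 266.6 FPKM of Epas1.

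Epas1, which encodes the HIF-2 alpha subunit and lies on chromosome 17 from 86753700 to 86833410 (plus strand), went the other way. Thalamus negative libraries of mice 1 to 4 were at 212, 203, 180.1 and 159 FPKM. Thalamus positive libraries were at 61.05, 63.5, 63.0 and 54.3 FPKM. These groups did not overlap, and the negative mean was 3.12 times the positive mean. The spinal cord negative libraries were at 267, 136, 120.0 and 109.6 FPKM. The positive ones were at 90.1, 101, 94.4 and 88.7 FPKM. Here the negative mean was 1.69 times the positive one, again without overlap, and the library of mouse 1 lay far above the other 3 negative ones. Endothelial cells are known for high Epas1. The endothelial marker sums given above were higher in every spinal cord negative library than in any positive one, while in the thalamus the sums of the gates overlapped. The mural marker sums were higher in every negative library than in any positive one in both regions. The part of these cells in the Epas1 values was not tested.

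Hif1a, the gene of the HIF-1 alpha subunit on chromosome 12 from 73901375 to 73947530 (plus strand), had its lowest levels in thalamus negative libraries, at 45.8, 34.6, 44.3 and 60.0 FPKM in mice 1 to 4. The thalamus positive libraries were at 90.4, 59.4, 75.6 and 72.6 FPKM. Positive was higher in 4 of 4 mice, but the ranges overlapped through the values of 60.0 and 59.4 FPKM. Spinal cord negative libraries were at 69.5, 78.1, 98.4 and 93.7 FPKM. The positive ones were at 95.4, 99.9, 85.9 and 108 FPKM. These ranges overlapped, and positive was higher in 3 of 4 mice. An antisense gene, Gm15283, spans all 46156 bases of Hif1a and was listed at 5.12 to 18.3 FPKM; whether the counting used strand is not stated by the labels, so reads of the 2 genes may not have been told apart.

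As a share of the summed FPKM of the 3 HIF alpha genes, Epas1 was the largest part in every negative library and took at most 36.2% in the 8 positive ones. Its mean share was 74.2 ± 5.11% in thalamus negative, 29.2 ± 1.87% in thalamus positive, 57.5 ± 13.0% in spinal cord negative and 34.7 ± 1.23% in spinal cord positive libraries (SD, n = 4). Hif3a took 7.33 ± 2.01% and 8.84 ± 5.67% in negative libraries of the thalamus and the spinal cord, and 34.8 ± 6.60% and 29.1 ± 4.36% in positive ones. In positive libraries the group means of all 3 shares lay between 29.1% and 36.2%. The sum itself was 253 ± 16.2 FPKM in thalamus negative, 208 ± 21.8 in thalamus positive, 265 ± 56.3 in spinal cord negative and 269.9 ± 21.6 in spinal cord positive libraries.

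**Figure D2:**
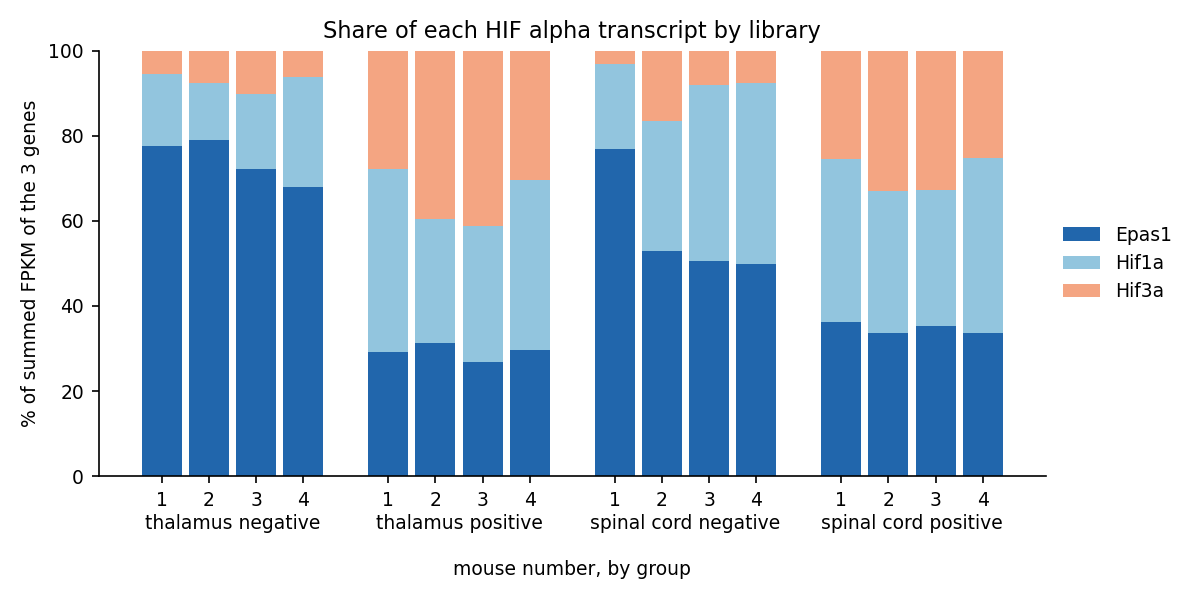
Share of Epas1, Hif1a and Hif3a in the summed FPKM of the 3 genes (percent, y axis) for each of the 16 libraries, grouped by region and reporter and numbered by mouse. Epas1 holds 49.8% to 79.1% in negative libraries and 26.7% to 36.2% in positive ones.

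The hydroxylases were weaker. Egln1, the main oxygen sensor of the family (chromosome 8, 124908587 to 124949324), was at 28.996 ± 9.19 FPKM in thalamus negative and 11.9 ± 0.876 in thalamus positive libraries, with spinal cord values of 28.3 ± 12.2 and 18.6 ± 1.80 FPKM (SD, n = 4). In the thalamus every positive library, at 11.0 to 13.0 FPKM, lay below every negative one, at 15.95 to 35.99 FPKM. In the spinal cord the ranges overlapped. Egln2 (chromosome 7, 27158658 to 27166802) was at 8.70 ± 2.28 and 11.0 ± 3.10 FPKM in negative and positive thalamus libraries and at 8.83 ± 2.92 and 13.1 ± 1.44 FPKM in spinal cord ones, with overlapping ranges for each pair. Egln3, itself a known HIF target (chromosome 12, 54178981 to 54203860), had the lowest mean of the 7 genes over the 16 libraries, with 4.88 ± 2.00 and 2.64 ± 0.641 FPKM in negative and positive thalamus libraries and 9.04 ± 5.13 and 6.41 ± 1.16 FPKM in spinal cord ones, though in spinal cord negative libraries its mean was above that of Egln2. Within the Egln sum, Egln1 took 66.9% and 60.3% in negative libraries of the thalamus and the spinal cord, and 47.1% and 48.8% in positive ones.

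Of the 7 genes, 4 had positive and negative groups that did not overlap in the thalamus (Hif3a and Vegfa higher, Epas1 and Egln1 lower) and 3 in the spinal cord (all but Egln1). Over all 16340 features tested these shares were 25.8% and 27.9%, and nothing is read from the members' counts because this contrast proposed the set. The authors' deposited table of positive against negative libraries, which holds 444 features, lists 3 of the 7 genes. Its log2 fold changes are 1.77 for Hif3a (standard error 0.24), 1.31 for Vegfa (0.061) and -1.18 for Epas1 (0.18).

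The first tested question was which of the genes differed between the regions. A gene was called at an adjusted p under 0.05 in limma, fitted on log2(FPKM + 1) over all 16 libraries. The fit held no term for the mouse, so its intervals do not use the pairing of libraries. Among negative libraries 1 of the 7 was called, Hif1a, where 9.81% of all features tested were called and 5.27% were called higher. Hif1a was at 84.9 ± 13.5 FPKM in the spinal cord and 46.2 ± 10.5 FPKM in the thalamus (SD, n = 4), with no overlap (as in 9.06% of all features, 5.05% in this direction) and with the spinal cord higher in 4 of 4 mice. The log2 difference was 0.88 ± 0.18 (SE, limma adjusted p = 0.00553), and it stayed under the threshold in 19 of 21 alternatives, whose adjusted p ran from 0.00225 to 0.0838. It missed the threshold without mouse 3, at 0.0749, and when only the 8 negative libraries were fitted, at 0.0838, a fit that called 2.16% of all features. The main fit shared its spread with the positive libraries, which varied less, as given below. Its standard errors for negative libraries may therefore be too small. Oligodendrocyte markers moved with Hif1a: 12 of 12 were called higher in spinal cord negative libraries, with the sums given above. Called higher too were 6 of 9 oligodendrocyte precursor and 7 of 13 endothelial markers, and 6 of 8 ependymal markers were called lower. Their part in the Hif1a difference was not tested.

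No other member was called in negative libraries. Vegfa differed by 0.01 ± 0.12 on the log2 scale, with a 95% interval of -0.24 to 0.26 (limma adjusted p = 0.985). Hif3a differed by 0.11 ± 0.34 with an interval of -0.60 to 0.83, which also holds differences of appreciable size. For Epas1 the difference was -0.34 ± 0.22 (adjusted p = 0.399), and it passed the threshold when mouse 1 was left out (adjusted p = 0.0414) or its spinal cord negative library alone (0.00898). Without both negative libraries of mouse 1, an alternative chosen after seeing the data, it was -0.56 with an adjusted p of 0.0151. Egln3 differed by 0.66 (adjusted p = 0.316) and passed in 1 alternative, which dropped mouse 3 from the spinal cord negative group (0.044). The adjusted p over all alternatives ran from 0.00898 to 0.704 for Epas1 and from 0.75 to 1 for Vegfa.

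Among positive libraries 0 of the 7 genes were called, where 6.1% of all features were. At an unadjusted limma p under 0.05, 4 were higher in the spinal cord: Epas1, Egln3, Egln1 and Hif1a. Of all 16340 features, 2937 were under that unadjusted level, in either direction. Epas1 was at 93.6 ± 5.57 FPKM in the spinal cord and 60.5 ± 4.23 FPKM in the thalamus (SD, n = 4), a log2 difference of 0.62 ± 0.22 (limma adjusted p = 0.128). Egln3 differed by 1.03 ± 0.37 (adjusted p = 0.133) and Egln1 by 0.61 ± 0.27 (adjusted p = 0.253). In these 3 genes the lowest spinal cord library was above the highest thalamus library and the spinal cord was higher in 4 of 4 mice, where 29.7% of all features did not overlap and 15.5% did not in this direction. Hif1a differed by 0.39 ± 0.18 (adjusted p = 0.265), with overlapping ranges.

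These adjusted p-values rest on a spread shared with the negative libraries, which varied more. The median SD over features was 0.538 and 0.470 on the log2 scale in thalamus and spinal cord negative libraries, and 0.221 and 0.193 in positive ones. With only the 8 positive libraries in the fit, the adjusted p was 0.00183 for Epas1, 0.00357 for Egln1 and 0.00434 for Egln3, and 25.9% of all features were then called. Epas1 also passed without mouse 1 (0.0323). Over all alternatives the adjusted p ran from 0.00183 to 0.411 for Epas1, 0.00357 to 0.574 for Egln1 and 0.00434 to 0.459 for Egln3. Vegfa differed by 0.02 ± 0.12 with an interval of -0.23 to 0.27 and Hif3a by 0.13 ± 0.34 with an interval of -0.59 to 0.84. Scaling each library to the same protein-coding sum turned both negative, to -0.26 and -0.16, as the median of all features moved to -0.22. Astrocyte markers moved with the region in positive libraries, with 6 of 12 called higher and 1 lower in the spinal cord, while 2 of 12 oligodendrocyte and 0 of 13 endothelial markers were called.

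**Figure D3:**
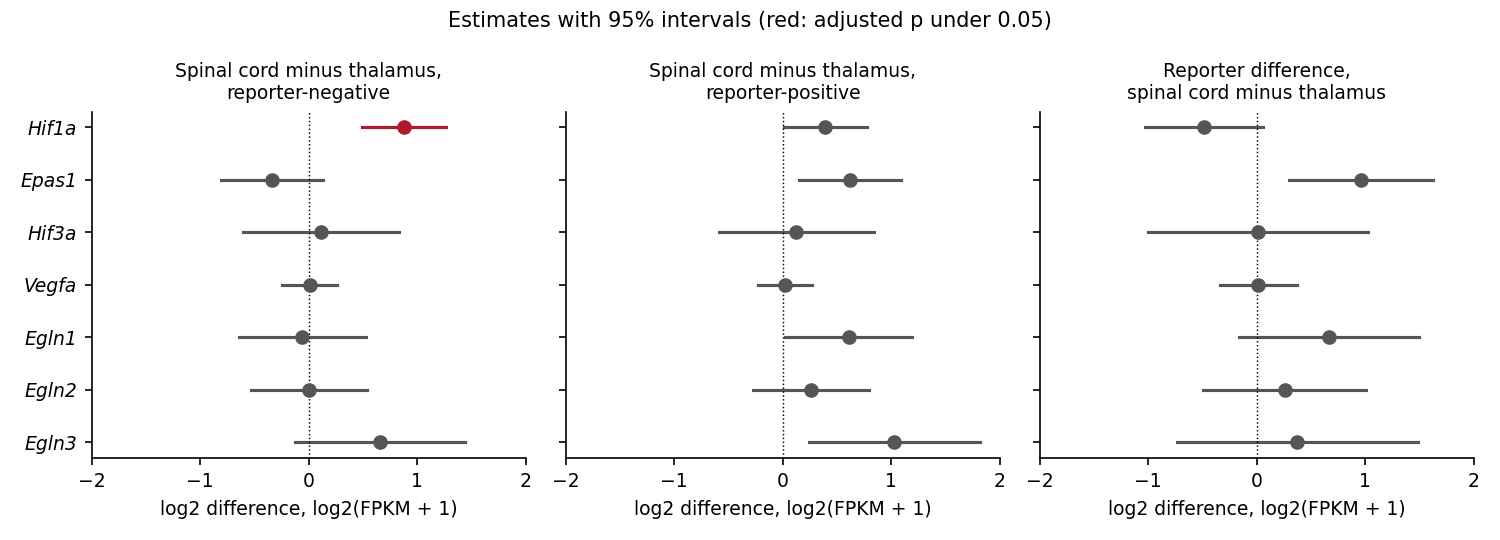
Estimated log2 differences of the 7 genes with 95% intervals from limma, for spinal cord minus thalamus in negative libraries (left) and positive libraries (middle), and for the positive minus negative difference of the spinal cord minus that of the thalamus (right); red marks an adjusted p under 0.05. Hif1a in negative libraries, at 0.88, is the one estimate in red, and the Vegfa intervals are the narrowest.

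The next question was whether the reporter difference had the same size in both regions. None of the 7 genes was called in this interaction (0 by limma, 1 at an unadjusted p under 0.05), where 2.56% of all features were, 1.13% higher and 1.43% lower. At the unadjusted level, 2407 of the 16340 features were under 0.05. The reporter difference of Vegfa differed between the regions by 0.01 ± 0.17 on the log2 scale, with an interval of -0.34 to 0.37 (limma adjusted p = 0.985). For Hif3a it was 0.01 with a wide interval, -1.002 to 1.03, from the fit without a term for the mouse. Epas1 gave 0.96 ± 0.31, with an interval of 0.30 to 1.63 and an adjusted p of 0.137, from reporter differences of -1.62 (thalamus) and -0.66 (spinal cord). Leaving out the mouse 1 library of spinal cord negative cells gave an adjusted p of 0.00242 for Epas1, leaving out all of mouse 1 gave 0.0178, and over all alternatives it ran from 0.00227 to 0.453. Egln1 gave 0.67 ± 0.39 (adjusted p = 0.467), and 1.16 (adjusted p = 0.0137) without both negative libraries of mouse 1.

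Mice differed in a way that ran through the groups for some genes. Hif3a was above the median of its group in all 4 libraries of mice 2 and 3 and in 0 of 4 in mice 1 and 4. Epas1 was above it in 4 of 4 libraries of mouse 2 and in 0 of 4 of mouse 4. Vegfa showed no such order, with 1, 3, 3 and 1 libraries above the group median in mice 1 to 4. These are descriptions of 4 animals, with no test.

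Among 11966 named protein-coding features, those with the most similar log2 pattern over the 16 libraries were Tmc7 (Pearson r = 0.974), Pigm (0.961) and C1ra (0.955) for Vegfa. For Hif3a they were Gpr146 (0.961), Ap3m1 (0.949) and Mettl17 (0.948). Epas1 was followed by Bmpr1a (0.973), a receptor for bone morphogenetic proteins, Hmgn5 (0.968) and Usp8 (0.962). For Hif1a the values were 0.933 for Fam212b, 0.914 for Enpp1 and 0.905 for Pcdh9. The leading genes were Higd2a (0.930) for Egln1, Pank4 (0.862) for Egln2 and Atp5h (0.890) for Egln3. All of these points share the 4 animals and the split by reporter, so the values describe a pattern and carry no test.

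Other genes of the pathway were read from lists of HIF partners and regulators, glycolytic targets, other targets and VEGF ligands and receptors. Here the positive against negative contrasts were tested, with 11.6% of all features called higher and 13.6% lower for thalamus and 9.04% and 10.5% for spinal cord. The lists were chosen with earlier results of these data known. Their calls in these contrasts are therefore no independent support for the member values. In the regional contrasts 4.54% were lower in negative libraries, and 4.22% were higher and 1.88% lower in positive libraries. Unadjusted limma p-values were under 0.05, in either direction, for 6184 and 5326 of the 16340 features in the reporter contrasts of the thalamus and the spinal cord. The numbers were 2937 between regions in positive libraries and 2407 in the interaction. With protein-coding scaling 70.9% of the called features were higher in thalamus positive libraries in place of 45.9%, and 30.3% were higher in the spinal cord among positive libraries in place of 69.2%. The plot of the pathway lists shows the members of each list in 4 of these contrasts. Calls for single genes in these lists often turned on 1 mouse.

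**Figure D4:**
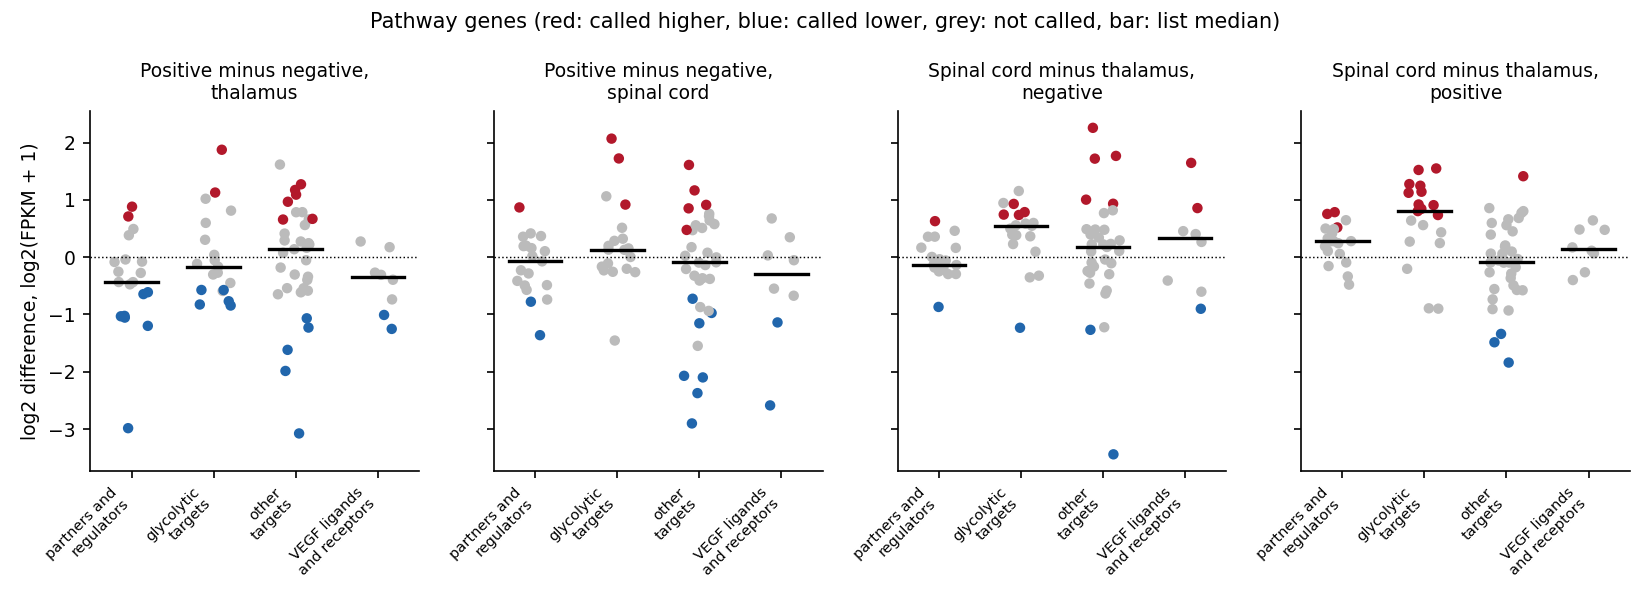
Log2 differences, on the log2(FPKM + 1) scale, of the tested genes of 4 HIF and VEGF lists in 4 contrasts; each point is a gene, red and blue mark genes called higher and lower, grey marks genes not called and bars are list medians. The glycolytic list stands highest in the positive libraries of the spinal cord against the thalamus, with a median of 0.80.

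In positive libraries glycolytic targets had the largest count of the 4 lists called between regions, with 11 of 19 tested genes higher in the spinal cord and 0 lower (1 at an unadjusted limma p under 0.05). Of all features, 4.22% were called higher and 1.88% lower in this contrast. The list median was 0.80 on the log2 scale where that of all features was -0.001. Pfkm, a phosphofructokinase subunit, was at 52.9 FPKM in the spinal cord and 17.4 FPKM in the thalamus, a log2 difference of 1.55 ± 0.30 that missed the threshold without mouse 2 or 4. Aldoc, the brain aldolase, was higher by 1.52 ± 0.21 and Pkm, the pyruvate kinase gene, by 1.27 ± 0.18, and both were called in all 21 alternatives. Aldoc is also on the astrocyte marker list, whose sums were higher in the same libraries. The mitochondrial share of the summed FPKM also differed between these groups without overlap, at 51.3% to 56.7% in thalamus positive and 43.7% to 49.2% in spinal cord positive libraries, and its part in the list was not tested. The count of 11 was 3, 4 and 2 without mouse 2, 3 or 4, and 9 with protein-coding scaling. In negative libraries 4 genes were higher, led by Pfkp (0.93 ± 0.24), Aldoc (0.79 ± 0.21) and Eno1 (0.74 ± 0.22), and Pdk1, which restrains pyruvate entry into mitochondria, was lower (-1.23 ± 0.34). None of these 5 was called without mouse 1 or in a fit of the negative libraries alone, and with the mouse as a block Eno1 and Pdk1 missed the threshold (adjusted p = 0.0512 and 0.0578).

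Between the gates the same list was divided. The shares of all features called higher and lower were 11.6% and 13.6% for thalamus and 9.04% and 10.5% for spinal cord. In the spinal cord 3 of 19 were higher in positive libraries: Pfkp (2.07 ± 0.24), Pfkfb3 (1.72 ± 0.37), which makes an activator of phosphofructokinase, and the glucose transporter gene Slc2a1 (0.92 ± 0.16), from 86.9 to 166 FPKM. All 3 were called in each of 21 alternatives. In the thalamus Pfkp (1.87 ± 0.24) and Pfkfb3 (1.13 ± 0.37) were higher, the latter losing its call in 12 of 21 alternatives, those without mouse 1, 2 or 3 among them. There 5 genes were lower, among them Aldoc (-0.84 ± 0.21), Gapdh (-0.83 ± 0.26) and Pkm (-0.77 ± 0.18), and this count was 0 without mouse 3 or mouse 4, 2 without mouse 2, 3 with the mouse as a block and 1 with protein-coding scaling. No gene of the list was called in the interaction (0 by limma, 4 at an unadjusted p under 0.05). For Pfkfb3 the authors' deposited table gives a log2 fold change of 0.93 (standard error 0.14).

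Of the other HIF targets, 34 were tested. Stc2, a secreted glycoprotein gene, was higher in positive libraries of both regions (by 1.27 ± 0.32 in thalamus and 1.61 ± 0.32 in spinal cord libraries), as was P4ha1, a collagen prolyl hydroxylase gene (1.09 ± 0.26 and 1.16 ± 0.26). P4ha1 was at 11.9 and 25.2 FPKM in negative and positive thalamus libraries and at 10.8 and 24.7 FPKM in spinal cord libraries. In the thalamus 6 genes were higher and 5 lower, and in the spinal cord 5 and 7. Of all features, 11.6% were called higher and 13.6% lower for thalamus, and 9.04% and 10.5% for spinal cord. The thalamus count of 6 was 3, 2 and 3 without mouse 1, 3 or 4, 3 without the filter on low values and 12 with protein-coding scaling, and the spinal cord count of 5 was 3 without mouse 2, 3 or 4. Stc2 lost its thalamus call without mouse 3 or 4, and P4ha1 its spinal cord call without mouse 3. Bhlhe41, a circadian repressor gene, was higher in the spinal cord (0.91 ± 0.12), and Angptl4 (1.17 ± 0.41) in the thalamus, but Angptl4 lost its call in 16 of 21 alternatives, without each of the 4 mice among them.

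The lower genes of this list included Cp, the ceruloplasmin gene, with log2 differences of -1.99 ± 0.45 (thalamus) and -2.90 ± 0.45 (spinal cord). Car9, a carbonic anhydrase gene, was lower in thalamus positive libraries (-3.08 ± 0.49), from 15.1 to 0.552 FPKM, and its spinal cord means were 0.151 and 0.212 FPKM. Car9 reached 1 FPKM in 4 of 4 thalamus negative libraries and in 1 of the other 12, so it entered the tests through the group in which it was high, and each of its calls against that group was favoured by the filter. Cxcl12 (-1.62 ± 0.31) was lower in the thalamus, and Ndrg1 (-2.37 ± 0.43) and Vldlr (-2.10 ± 0.27) in the spinal cord. Cxcl12 reached 1 FPKM in 4 of 4 negative libraries of each region and in 0 positive ones, so its call was favoured by the filter too. Markers of oligodendrocytes and ependymal cells were lower in positive libraries too, 10 of 12 and 8 of 8 for thalamus and 11 of 12 and 8 of 8 for spinal cord, and their part in these values was not tested.

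Between regions the other targets were called both ways, where 9.81% of all features were called in negative and 6.1% in positive libraries. In negative libraries Ankrd37 (2.26 ± 0.66), Ndrg1 (1.77 ± 0.43) and Cp (1.72 ± 0.45) were among 5 higher in the spinal cord, and Car9 (-3.44 ± 0.49) and Stc2 (-1.27 ± 0.32) were lower. With any 1 mouse left out the count of higher genes was 1 to 2, and with the negative libraries alone it was 0. Ankrd37 lost its call in 14 of 21 alternatives, the mouse as a block among them (adjusted p = 0.0543), and Ndrg1, Cp and Stc2 lost theirs without any 1 of 3 mice (2, 3 or 4 for Ndrg1, 1, 3 or 4 for Cp, 1, 2 or 4 for Stc2), while Car9 was called in each of 20 alternatives. In positive libraries Edn1 (1.41 ± 0.38) was higher, and Angptl4 (-1.84 ± 0.41), Cxcr4 (-1.49 ± 0.36) and Vldlr (-1.34 ± 0.27) were lower. Edn1, which entered the tests through the spinal cord positive libraries (4 of the 5 libraries at 1 FPKM or more), lost its call in 13 of 20 alternatives, without each of the 8 positive libraries among them, Angptl4 and Cxcr4 without mouse 2, 3 or 4, and Vldlr without mouse 2 or 3. In the interaction Vldlr (-2.34 ± 0.38) was lower, and Car9 (3.15 ± 0.69) and Bhlhe41 (0.69 ± 0.17) were higher, of which Bhlhe41 lost its call in 22 of 28 alternatives (adjusted p = 0.0873 with the mouse as a block) and Car9, favoured by the filter as above, in 9 of 27, while Vldlr lost its call without mouse 2 or 3.

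VEGF ligands and receptors other than Vegfa comprised 8 tested genes, and 0 of them were called higher in positive libraries of either region (0 for thalamus and 1 for spinal cord at an unadjusted limma p under 0.05). With the mouse as a block the spinal cord count was 1, Nrp1, as it was with protein-coding scaling and without mouse 1. Over all features, 11.6% were called higher for thalamus and 9.04% for spinal cord. The receptor gene Flt1 was lower in positive libraries, with log2 differences of -1.01 ± 0.21 for thalamus and -2.59 ± 0.21 for spinal cord. Flt1 reached 1 FPKM in 4 of 4 negative libraries of each region and in 0 positive ones. It entered the tests through the gate in which it was high, so these 2 calls were favoured by the filter. Nrp2, a neuropilin co-receptor gene, was lower in the thalamus (-1.25 ± 0.23), and Kdr in the spinal cord (-1.14 ± 0.16). Flt1 and Kdr were low in any group, with at most 7.24 and 1.495 FPKM as group means, both in spinal cord negative libraries. Kdr reached 1 FPKM only in those 4 libraries, so it entered the tests through the group in which it was high, and both of its calls were favoured by the filter. In negative libraries both were higher in the spinal cord, Flt1 by 1.64 ± 0.21 and Kdr by 0.86 ± 0.16, while Nrp1 was lower (-0.90 ± 0.25), and Nrp1 lost its call without mouse 2, 3 or 4 and Kdr without mouse 3 or 4, and both in a fit of the negative libraries alone. With them, 7 of 13 endothelial markers were called higher in spinal cord negative libraries, and the part of these in the receptor values was not tested. Flt1 also differed in the interaction (-1.58 ± 0.30), a call lost without mouse 3 or 4 and with a pseudocount of 0.1. In positive libraries 0 of 8 were called between the regions (1 at an unadjusted p under 0.05).

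Partners and regulators gave 19 tested genes. Over all features, 11.6% were called higher and 13.6% lower in positive libraries of the thalamus, and 9.04% and 10.5% of the spinal cord. Arnt, the common partner of the HIF alpha subunits, was higher in thalamus positive libraries (0.88 ± 0.18), from 12.5 to 23.4 FPKM, and missed the threshold without mouse 3. Hif1an, which encodes an asparagine hydroxylase that blocks HIF coactivator binding, was also higher there (0.71 ± 0.24), with its call lost in 11 of 20 alternatives and without any 1 of the 4 mice. There 7 were lower, led by the chaperone gene Hsp90aa1 (-2.98 ± 0.19), which was also lower in the spinal cord (-1.36 ± 0.19), and by Elob (-1.20 ± 0.20) and Eloc (-1.05 ± 0.36) of the Vhl complex, of which Eloc lost its call in 12 of 21 alternatives, without any 1 of the mice among them. The count of 7 was 4 without mouse 2 or mouse 3 and 3 with protein-coding scaling. Hsp90aa1 was at 284 and 35.4 FPKM in negative and positive thalamus libraries. In the spinal cord Hsp90ab1 was lower (-0.78 ± 0.19), a call lost without mouse 3 or 4, and Cul2 higher (0.87 ± 0.28), a call lost in 11 of 21 alternatives, without mouse 2, 3 or 4 and the mouse as a block (adjusted p = 0.0538) among them. With these, immediate early genes, which rise after tissue dissociation as well as after activity, were lower in positive libraries, 4 of 9 for thalamus and 5 of 9 for spinal cord, and their part was not tested.

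Between regions 2 of the 19 partners were called in negative and 3 in positive libraries, where 9.81% and 6.1% of all features were. In negative libraries Rbx1 (0.63 ± 0.19) was higher and Hsp90aa1 (-0.87 ± 0.19) lower in the spinal cord, calls lost in 14 and 4 of 21 alternatives, with the mouse as a block among those of Rbx1 (adjusted p = 0.0753). In positive libraries Rbx1 (0.78 ± 0.19), Hsp90aa1 (0.75 ± 0.19) and Arnt2 (0.52 ± 0.12) were higher, but leaving out mouse 2 or mouse 4 left 0 of these 3, and protein-coding scaling also left 0. Hsp90aa1 missed the threshold there with the mouse as a block (adjusted p = 0.0674). The reporter difference of Hsp90aa1 differed between the regions by 1.62 ± 0.28 and that of Arnt2 by 0.81 ± 0.17, of which the call of Hsp90aa1 was lost without mouse 4 and that of Arnt2 without any 1 of the mice.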

How the data were processed

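Per the labels' protocols, a Qiagen micro kit was used for RNA and a NuGEN amplification kit for the libraries. The submitters' processing notes list DESeq2, Cufflinks and Cuffnorm, HTSeq 0.6.1p1, TopHat2 2.0.11 with Bowtie2 2.2.3 among their tools, FastQC, and the build GRCm38. The authors deposited FPKM values for 39171 features in 16 libraries. Per the file headers, their deposited comparison table also holds log2 fold changes and standard errors, the mean signal over libraries, a score for each test, and each p-value as computed and as adjusted. Values of 1 FPKM or more were found for 13260 to 14731 features per library, and the mitochondrial share of the summed FPKM was 43.7% to 73.9%. Depth is unknown, because the smallest values gave no steps of single reads, and counting intervals are therefore left out.

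From these values, a limma model (version 3.58.1, R 4.3.3) of log2(FPKM + 1) was made with 1 coefficient per group and a trended prior. The 16340 features that reached 1 FPKM in at least 4 libraries entered, all 7 members among them. P-values were adjusted by Benjamini-Hochberg over all of these features. This scale understates changes of weakly expressed genes. The script was tested on simulated data, in which a feature had the same spread in every group and no mouse effect. That test therefore does not cover the unequal spread and the shared mice of these libraries. Other settings changed the pseudocount (0.1), the filter (5 FPKM or none), the scaling, the prior, the libraries fitted and the mouse as a block. Mouse numbers pair the libraries because the labels give all 4 libraries of a number to 1 animal. As a check, deviations from group means correlated at 0.0358 on average in 24 same-mouse pairs (-0.0135 to 0.0919). In 72 pairs of other mice and other groups the mean was -0.0119 (-0.0971 to 0.1041). The first range lies within the second, so the check does not decide the pairing. The members and gene lists were chosen with earlier results of these data known. Of 191 list genes 190 were found. In each list and comparison the 3 called genes with the largest difference in each direction were named, and for each member the features with the highest correlation. Coordinates are those of GENCODE release 21 for mouse on GRCm38, and promoter windows are from RefSeq (GRCm38.p6).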

Additional observations from a re-analysis of the deposited data

Results flagged for a closer look

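Of the 28 combinations of gene and group for the 7 genes, 1 had a library far from the others. Epas1 in the spinal cord negative library from mouse 1 was at 266.6 FPKM, and its gap to the next library was 0.831 of the group's range, above Dixon's 95% critical value for 4 samples. Chance flags about 1 in 20 groups. The same library had a mitochondrial share of 71.8% of its summed FPKM, against 46.7% to 58.7% in the other 3 of its group. Its part in the Epas1 value was not tested.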

How the results depend on the processing

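Over all 16340 features the counts called were 1603 and 996 for the spinal cord against the thalamus in negative and positive libraries, 418 for the interaction, and 4119 and 3196 for the reporter contrasts of the thalamus and the spinal cord. Leaving out 1 mouse or library gave 976 to 1808, 368 to 838, 129 to 659, 2249 to 4855 and 1861 to 3006, in fits that also held fewer libraries. With only the groups compared in the fit the regional counts were 353 and 4227, where Hif1a at 0.8784 missed the threshold in negative libraries and Epas1 (0.6224), Egln1 (0.6087) and Egln3 (1.0298) passed it in positive ones. The interaction called 271 features under a filter of 5 FPKM. With the mouse as a replicate block, the paired analysis, the counts were 1541, 981, 343, 4107 and 3205, and no member's call changed.

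Protein-coding scaling moved the median of all features to 0.32 and 0.17 in the reporter contrasts and to -0.22 and -0.15 in the positive regional contrast and the interaction, where 28.9% of calls were higher in place of 44.02%. Members near 0 changed sign under it, none past the threshold: Egln2 (-0.0607) and Vegfa (-0.0633) in negative libraries, Hif3a (-0.1559), Egln2 (-0.0007) and Vegfa (-0.2612) in positive ones, and Hif3a (-0.201) and Vegfa (-0.1979) in the interaction. Without both negative libraries of mouse 1, added after seeing the data, 1645 features were called in the positive regional contrast and 904 in the interaction. Epas1 then passed in negative libraries (-0.5623), in positive ones (0.6224) and in the interaction (1.1847), and so did Egln1 in positive libraries (0.6087) and the interaction (1.1646). Egln2 in negative libraries (-0.0188) and Hif3a (-0.1802) and Vegfa (-0.029) in the interaction changed sign.

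Leaving out 1 mouse or library, the negative regional difference ran from 0.7514 to 1.0111 for Hif1a, -0.6209 to -0.196 for Epas1, -0.2487 to 0.3915 for Hif3a, -0.5559 to 0.1948 for Egln1, -0.1877 to 0.1659 for Egln2, 0.2924 to 1.2012 for Egln3 and -0.0745 to 0.058 for Vegfa. The positive one ran from 0.5726 to 0.6474 for Epas1 and -0.0458 to 0.0702 for Vegfa. The interaction ran from 0.8184 to 1.2433 for Epas1, -0.2658 to 0.3744 for Hif3a, -0.0048 to 0.514 for Egln2, -0.2082 to 0.7239 for Egln3 and -0.0743 to 0.1199 for Vegfa. The cause of these changes was not tested. Of 490 alternative values of the tested member results, 423 kept their direction and their side of the threshold. Depth is unknown, so the counting error behind the low Egln values is not known.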
